A study of Homo sapiens with 12 samples.

Results

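The cadherins and their relatives are the calcium-dependent adhesion molecules of animal cells. The genes described here are the protein-coding genes whose symbols are CDH, DSG, DSC or CLSTN followed by a number, or begin with PCDH. By symbol alone, 99 of the 19806 protein-coding genes in the count table belonged to this set. They comprised 18 classical cadherins, 5 other CDH genes, 7 desmosomal cadherins, 3 calsyntenins, 13 nonclustered protocadherins and the 53 clustered protocadherins of chromosome 5, which were kept apart. Of the 99 genes, 21 had enough counts to be tested, 52 had counts but too few to pass the filter used before testing (at most 89 over 12 libraries), and 26 had no count in any library.

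RNA was sequenced from HK2 cells, an immortalized line from the human kidney proximal tubule, in 4 groups of 3 libraries that the labels name as biological replicates. All cells carried a short hairpin RNA (shRNA), either a control hairpin (shControl, called nontarget here) or one against FLCN, the tumor suppressor gene of Birt-Hogg-Dubé syndrome. The 4 groups were short-term nontarget and short-term knockdown cells, harvested before passage 30, and long-term nontarget and long-term knockdown cells, kept for more than 120 passages according to the labels, while the study's text sets a lower limit. The study selected stable clones, and the clone behind each library is not stated. Neither hairpin nor culture time can thus be told apart from clone, and p-values measure the spread between these cultures.

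Cadherins carry repeated extracellular domains that bind the same or a related cadherin on the next cell. Classical cadherins join the actin cytoskeleton through catenins at adherens junctions, and desmosomal cadherins (desmogleins and desmocollins) join keratin filaments through plakoglobin and plakophilins. Proximal tubule cells are known for using N-cadherin (CDH2) and K-cadherin (CDH6) more than E-cadherin (CDH1), and the clustered protocadherins, best known in neurons, are transcribed from many alternative promoters.

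Library totals ranged from 5825779 to 8991051 counts. FLCN had 15.3 ± 2.25 CPM (counts scaled to a common library size, mean ± SD, n = 3) in short-term nontarget and 6.06 ± 0.469 in short-term knockdown cells (log2 fold change −1.33, SE 0.179, adjusted p = 0.000112 by edgeR). The long-term values were 11.3 ± 1.23 and 6.99 ± 0.868 (log2 fold change −0.70, SE 0.178, adjusted p = 0.00611 by edgeR). Against the cell type label, the proximal tubule markers LRP2, SLC22A6, SLC22A8 and HNF4A had 0 counts in all 12 libraries, while PAX8, MME and GGT1 were detected. The summed CPM of 5 immune markers was at most 1.32 and that of 5 endothelial markers at most 2.20 in any library.

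The reference promoters of 6 members are shown because these genes carry the main contrasts below: CLSTN2, which fell furthest, the desmosomal genes DSC3, DSC2 and DSG2, which fell together in long-term knockdown, and PCDHGA7 and PCDHGC3, which lie in the same gene cluster and differed in their levels. Each runs 5′ to 3′ on the gene's strand from 250 bases before to 50 bases after the RefSeq start (GRCh38.p14). Capitals mark CACCTG or its reverse complement CAGGTG, the E-box read by SNAI and ZEB repressors.
CLSTN2: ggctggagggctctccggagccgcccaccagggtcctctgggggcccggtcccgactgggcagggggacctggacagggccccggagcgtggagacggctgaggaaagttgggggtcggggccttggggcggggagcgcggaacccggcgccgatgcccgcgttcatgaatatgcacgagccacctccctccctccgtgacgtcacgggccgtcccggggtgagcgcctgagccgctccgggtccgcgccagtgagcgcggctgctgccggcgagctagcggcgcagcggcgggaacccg
DSC3: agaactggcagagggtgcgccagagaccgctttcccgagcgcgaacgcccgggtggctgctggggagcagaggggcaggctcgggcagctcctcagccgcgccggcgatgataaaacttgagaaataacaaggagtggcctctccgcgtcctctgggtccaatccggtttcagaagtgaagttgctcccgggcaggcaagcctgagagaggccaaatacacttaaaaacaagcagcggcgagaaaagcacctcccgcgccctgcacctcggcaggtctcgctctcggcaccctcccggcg
DSC2: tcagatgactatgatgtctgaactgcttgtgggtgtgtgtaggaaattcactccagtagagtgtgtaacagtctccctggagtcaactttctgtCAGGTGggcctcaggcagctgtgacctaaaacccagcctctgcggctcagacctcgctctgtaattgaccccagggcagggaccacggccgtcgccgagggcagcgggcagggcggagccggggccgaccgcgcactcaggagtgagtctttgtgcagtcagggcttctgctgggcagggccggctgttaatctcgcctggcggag
DSG2: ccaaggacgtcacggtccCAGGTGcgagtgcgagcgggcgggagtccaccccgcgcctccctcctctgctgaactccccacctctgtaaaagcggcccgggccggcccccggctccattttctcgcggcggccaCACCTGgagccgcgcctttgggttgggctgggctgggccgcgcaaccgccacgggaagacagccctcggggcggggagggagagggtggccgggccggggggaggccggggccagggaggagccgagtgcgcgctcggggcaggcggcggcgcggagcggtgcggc
PCDHGA7: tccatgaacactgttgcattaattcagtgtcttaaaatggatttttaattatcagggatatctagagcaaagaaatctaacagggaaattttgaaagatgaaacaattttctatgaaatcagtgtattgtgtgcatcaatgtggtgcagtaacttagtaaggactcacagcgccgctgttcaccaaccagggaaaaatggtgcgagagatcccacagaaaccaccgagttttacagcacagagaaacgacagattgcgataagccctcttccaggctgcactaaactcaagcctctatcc
PCDHGC3: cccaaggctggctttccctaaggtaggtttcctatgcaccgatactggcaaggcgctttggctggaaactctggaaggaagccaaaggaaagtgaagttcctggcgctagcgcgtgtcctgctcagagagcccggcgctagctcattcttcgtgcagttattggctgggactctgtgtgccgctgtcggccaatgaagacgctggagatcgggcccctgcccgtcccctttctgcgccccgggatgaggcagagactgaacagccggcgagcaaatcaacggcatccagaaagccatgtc

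These windows are chr3:139934935-139935234 (plus strand), chr18:31042693-31042992 and chr18:31102372-31102671 (minus strand), chr18:31497927-31498226 (plus strand), chr5:141382492-141382791 and chr5:141475716-141476015 (plus strand). The CLSTN2 and DSG2 windows held 36 CpG dinucleotides each and the DSC3 window 25, against a median of 14 over 27303 RefSeq promoters, while the PCDHGC3 window held 18, the DSC2 window 15 and the PCDHGA7 window 6. CACCTG on either strand occurred in 5 of the 15 tested members with a listed promoter (CLSTN3, CDH4, DSC2, DSG2 and PCDH1) and in 20.6% of all promoters. The CDH4 window (chr20:61499171-61499470) lies inside that gene, which begins at 61252426 on the plus strand. The PCDH1 window (chr5:141869578-141869877) also lies inside its gene, which begins at 141879246 on the minus strand. Whether HK2 cells use these starts was not tested. CACGTG, the E-box bound by TFE3 and TFEB, which FLCN regulates, occurred in 0 of the 15 and in 7.44% of all promoters. A match in such a window is a description of its letters.

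More of the tested members differed after long-term than after short-term knockdown. With edgeR's quasi-likelihood test and an adjusted p (Benjamini-Hochberg) below 0.05, 3 of the 21 tested members were higher after short-term knockdown (CDH3, CDH6 and PCDH1), where 5.62% of all 13959 tested genes were higher, and 4 were lower (CDH2, DSC3, PCDHGA7 and PCDHGC3), where 4.71% of all tested genes were lower. After long-term knockdown, 3 were higher (CDH6, CDH16 and PCDH9) against 13.7% of all tested genes, and 13 were lower against 15.8% (CDH2, CDH3, CDH4, CDH17, CDH24, CLSTN1, CLSTN2, DSC2, DSC3, DSG2, PCDH1, PCDH7 and PCDHGA7). The median log2 fold change of the 21 members was −0.17 short-term and −0.55 long-term, and that of all tested genes was 0.00 in both. As the RNA comes from bulk cultures, fewer cells with a transcript and less of it per cell cannot be told apart.

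In nontarget cells, long culture was accompanied by 7 higher members (CDH2, CDH3, CDH6, CDH16, CLSTN1, CLSTN2 and PCDH1) against 3.17% of all tested genes and by 1 lower member (PCDHGA7) against 4.38%. In knockdown cells, 6 members were higher in long-term than in short-term culture (CDH2, CDH6, CDH16, PCDH9, PCDH10 and PCDHGC3) against 11.5% of all tested genes. Another 10 were lower against 15.2%, namely CDH3, CDH4, CDH24, CLSTN2, DSC2, DSC3, DSG2, PCDH1, PCDH7 and PCDHGA7. These culture comparisons share their libraries with the knockdown comparisons and are not independent of them. The knockdown effect itself differed between long-term and short-term cells (interaction term) for 7 members, with 1 more positive effect (CDH6) against 4.98% of all tested genes and 6 more negative effects (CLSTN2, CDH3, CDH4, DSC2, DSC3 and PCDH1) against 8.43%.

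**Figure D1:**
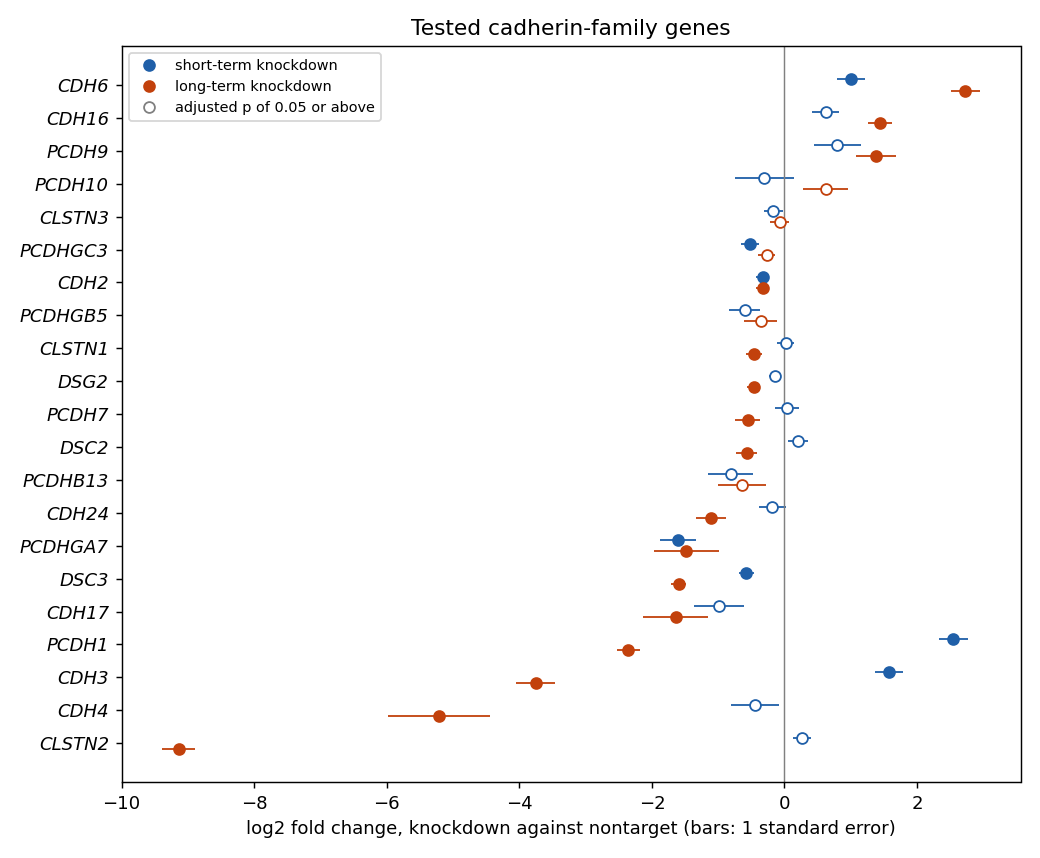
Log2 fold change of knockdown against nontarget for the 21 tested members (x axis), short-term in blue and long-term in orange, with bars of 1 standard error and open circles at an adjusted p of 0.05 or above. Genes are ordered by the long-term value, from CDH6 (2.73) down to CLSTN2 (−9.14), and CDH3 and PCDH1 lie on opposite sides of 0 at the 2 times.

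Levels can be compared between genes only per length, as RPKM (CPM per kilobase of exon). Over the 12 libraries the mean RPKM was highest for CLSTN1 (44.6 ± 10.5 SD), CDH2 (44.0 ± 9.01) and CDH6 (41.7 ± 54.3), then DSG2 (25.8 ± 4.05) and PCDHGC3 (23.0 ± 5.29). The first 3 means lay closer together than their spread over libraries. The order was not the same in every group, since CDH6 averaged 5.47 ± 1.46 RPKM in short-term nontarget and 131 ± 14.6 RPKM in long-term knockdown cells, where it was the most abundant member.

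CDH6 (K-cadherin, a type II classical cadherin of the developing and adult nephron; chr5:31193750-31329146, plus strand, GRCh38) rose with knockdown at both times. Its level was 51.4, 64.7 and 87.0 CPM in the 3 short-term nontarget libraries and 134, 176 and 96.6 CPM after short-term knockdown. Long-term nontarget libraries had 228, 208 and 295 CPM and long-term knockdown libraries 1701, 1742 and 1412 CPM. No pair of groups overlapped, and the lowest long-term knockdown library was far above every other library. The rise was 2.01-fold short-term (adjusted p = 0.00627 by edgeR, log2 fold change 1.01, SE 0.213) and 6.64-fold long-term (adjusted p = 1.80e-07 by edgeR, log2 fold change 2.73, SE 0.213), and the effects differed by 1.72 (SE 0.294, adjusted p = 0.000845 by edgeR) on the log2 scale. CDH6 was 3.61-fold higher in long-term than in short-term nontarget cells (adjusted p = 6.04e-05 by edgeR, log2 fold change 1.85, SE 0.215). The 40 nearest tested genes outside the set had a median log2 fold change of 0.32 short-term, 0.21 long-term and 0.45 with long culture of nontarget cells, whose part in the CDH6 values was not tested.

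CDH2 (N-cadherin, a type I classical cadherin; chr18:27950966-28177446, minus strand) was the main classical cadherin in the other 3 groups and changed little. It had 216, 191 and 213 CPM in short-term nontarget and 174, 150.5 and 169 CPM in short-term knockdown libraries. The long-term values were 294, 256 and 286 CPM without and 238, 215 and 212 CPM with knockdown. The knockdown libraries lay below the nontarget libraries of the same time without overlap, by 1.26-fold short-term (adjusted p = 0.0402 by edgeR, log2 fold change −0.33, SE 0.0979) and 1.26-fold long-term (adjusted p = 0.0155 by edgeR, log2 fold change −0.33, SE 0.0969). The short-term call was lost when any 1 of the 6 short-term libraries was left out (edgeR adjusted p up to 0.160) and without the filter on low counts, and the long-term call without long-term nontarget replicate 1 or long-term knockdown replicate 2 (adjusted p up to 0.0524). CDH2 was higher in long-term than in short-term nontarget cells (adjusted p = 0.00977 by edgeR, log2 fold change 0.43, SE 0.0971).

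The composition of the classical cadherins differed between groups. CDH6 made up 8.75% ± 1.95 (SD, n = 3) of the summed RPKM of the 18 classical genes in short-term nontarget and 18.4% ± 5.89 in short-term knockdown cells. In the long-term cells it made up 21.9% ± 2.00 without and 72.3% ± 2.49 with knockdown. The CDH2 share was 67.2% ± 2.94, 55.4% ± 3.50, 63.2% ± 3.92 and 24.9% ± 1.60 in the same order of groups. CDH2 thus held most of the sum in 3 groups and CDH6 in the fourth. The sum itself was 62.2 ± 4.14 and 60.0 ± 1.75 RPKM in the short-term nontarget and knockdown cells, and 89.3 ± 8.998 and 180.5 ± 14.8 RPKM in the long-term cells.

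**Figure D2:**
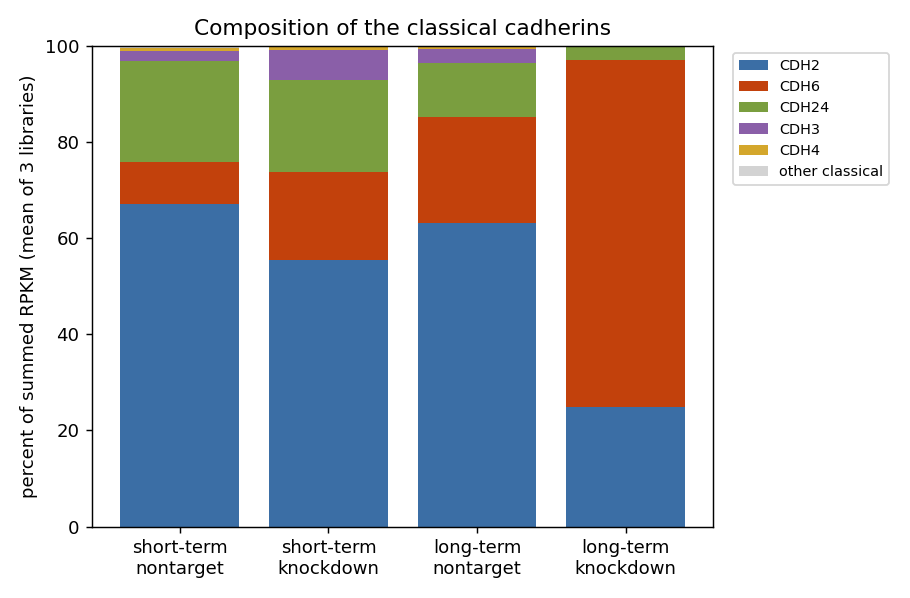
Share of each classical cadherin in the summed RPKM of the 18 classical genes (y axis, percent, mean of 3 libraries) in the 4 groups. CDH2 is the largest part in 3 groups, and CDH6 makes up 72.3% in long-term knockdown cells.

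CDH3 (P-cadherin, a type I classical cadherin; chr16:68636189-68722616, plus strand) moved in opposite directions at short-term and long-term knockdown. It had 5.88, 6.23 and 11 CPM in short-term nontarget and 22.9, 21.8 and 24.2 CPM in short-term knockdown libraries, a rise of 3.00-fold (adjusted p = 0.000105 by edgeR, log2 fold change 1.58, SE 0.211). Long-term, CDH3 stood at 16.5, 14.6 and 16.8 CPM without and 1.502, 0.587 and 1.36 CPM with knockdown, a fall of 13.5-fold (adjusted p = 4.36e-08 by edgeR, log2 fold change −3.75, SE 0.290). The groups did not overlap at either time, and the effects differed by −5.34 (SE 0.361, adjusted p = 2.23e-08 by edgeR). CDH1 (E-cadherin), whose gene starts 14.6 kb beyond the end of CDH3, was near absent and did not pass the filter on low counts. Its summed counts were 3, 7, 16 and 0 in short-term nontarget, short-term knockdown, long-term nontarget and long-term knockdown cells. Against a floor of 3 counts over the group, its level was at least 5.26-fold lower in long-term knockdown than in long-term nontarget cells, a bound that covers counting error only. Without the filter, CDH1 was called lower after long-term knockdown (adjusted p = 0.00243 by edgeR, log2 fold change −5.4). Its interaction was then called too (adjusted p = 0.01175 by edgeR, log2 fold change −6.52). These fold changes depend on the prior count, since 0 counts remained.

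CDH4 (R-cadherin) and CDH24, a type II cadherin, were lower after long-term knockdown. CDH4 had 18, 23 and 31 counts in short-term nontarget and 18, 14 and 21 counts in short-term knockdown libraries. It had 23, 9 and 20 counts in long-term nontarget and 1, 0 and 0 counts in long-term knockdown libraries. A single count thus remained in the 3 long-term knockdown libraries, which makes long-term nontarget cells higher by a ratio of 51.3 (95% counting interval 8.81 to 2065). CDH4 was called by edgeR long-term and in the interaction (adjusted p = 5.66e-05 and 0.00168). CDH24 had 47.7, 47.7 and 51.2 CPM in short-term nontarget, 35.5, 37.0 and 57.5 CPM in short-term knockdown, 31.2, 33.1 and 49.5 CPM in long-term nontarget and 15.4, 14.7 and 23.4 CPM in long-term knockdown libraries. Replicate 3 was the highest library in each group, and the short-term groups overlapped while the long-term groups did not (adjusted p = 0.00121 by edgeR, log2 fold change −1.11, SE 0.222). The 40 nearest tested genes of CDH24 had medians of −0.15 in this comparison and −0.53 with long culture of knockdown cells. CDH11, the cadherin of mesenchymal cells, had 0 counts in all 12 libraries.

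CDH16 (Ksp-cadherin, a kidney-specific cadherin with a short cytoplasmic tail; chr16:66908122-66918984, minus strand) rose after long-term knockdown. It had 9.71, 11.8 and 12.2 CPM in short-term nontarget and 12.8, 19.4 and 20.2 CPM in short-term knockdown libraries. Long-term libraries had 16.8, 14.9 and 24.2 CPM without and 48.5, 48.9 and 55.0 CPM with knockdown. The knockdown libraries were above the nontarget libraries at both times, with a 2.71-fold difference long-term (adjusted p = 1.10e-05 by edgeR, log2 fold change 1.44, SE 0.182). The short-term difference missed the threshold (adjusted p = 0.0625 by edgeR, log2 fold change 0.62, SE 0.205) but passed it with DESeq2, without a filter on low counts, with only the groups compared, and without short-term knockdown replicate 1 (lowest adjusted p 0.00995). CDH17 (LI-cadherin of the intestine and liver) had 34 and 17 summed counts in the short-term and 23 and 7 in the long-term groups. Its long-term fall (adjusted p = 0.0172 by edgeR, log2 fold change −1.64, SE 0.491) was not called with DESeq2, without the filter, or without long-term knockdown replicate 1 or 2 or long-term nontarget replicate 3 (adjusted p up to 0.0814). CDH13 (T-cadherin, which is anchored by a lipid) had 9 counts in all and was not tested.

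All 3 tested desmosomal cadherins fell after long-term knockdown, where 15.8% of all tested genes were lower, and 1 of them also fell short-term, against 4.71%. DSC3 (desmocollin 3, known from stratified epithelia; chr18:30990008-31042815, minus strand) had 107, 109.6 and 126 CPM in short-term nontarget and 83.3, 76.5 and 70.6 CPM in short-term knockdown libraries. It had 142, 122 and 121 CPM in long-term nontarget and 47.0, 37.1 and 43.1 CPM in long-term knockdown libraries. Knockdown and nontarget libraries did not overlap at either time, and the fall was 1.49-fold short-term (adjusted p = 0.00321 by edgeR, log2 fold change −0.57, SE 0.114) and 3.02-fold long-term (adjusted p = 2.58e-08 by edgeR, log2 fold change −1.60, SE 0.118), with a difference of −1.02 (SE 0.163, adjusted p = 0.000299 by edgeR). The other 4 desmosomal cadherins were not tested, and their counts were at most 2 in all.

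DSG2 (desmoglein 2, the desmoglein of simple epithelia; chr18:31498043-31549008, plus strand) had 179, 181 and 188 CPM and 164, 180.4 and 152 CPM in the short-term nontarget and knockdown libraries, which overlapped (adjusted p = 0.405 by edgeR, log2 fold change −0.14, SE 0.0943). Long-term, it fell from 179, 166 and 162 CPM to 127, 127 and 112 CPM without overlap (adjusted p = 0.00113 by edgeR, log2 fold change −0.47, SE 0.0950). DSC2, the desmocollin of simple epithelia, had 17.1, 16.9 and 18.5 CPM in short-term nontarget and 20.4, 20.2 and 20 CPM in short-term knockdown libraries (adjusted p = 0.473 by edgeR, log2 fold change 0.21, SE 0.154). Its long-term level fell from 23.9, 23.7 and 17.3 CPM to 16.6, 12.3 and 14.4 CPM (adjusted p = 0.00946 by edgeR, log2 fold change −0.57, SE 0.155), with 1 nontarget library close to the knockdown libraries. The DSC2 effects differed by −0.78 (SE 0.219, adjusted p = 0.0237 by edgeR), a call that 5 of 12 fits without 1 library did not make (adjusted p up to 0.0648), namely those without replicate 1 or 2 of either nontarget group or replicate 2 of long-term knockdown. DSC3 and DSC2 lie 16 kb apart and DSG2 396 kb further on chromosome 18, and the 40 tested genes nearest to them had a median log2 fold change of 0.05 long-term.

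Partners of these cadherins inside the cell were counted from lists chosen by function. Of 7 tested catenin and adherens junction plaque genes, 3 were called after long-term knockdown and fell, where 15.8% of all tested genes were lower: JUP (plakoglobin, which serves both junction types; adjusted p = 0.000405 by edgeR, log2 fold change −0.94, SE 0.169), VCL (vinculin; adjusted p = 3.64e-05 by edgeR, log2 fold change −0.90, SE 0.128) and CTNNA1 (alpha-catenin; adjusted p = 0.000138 by edgeR, log2 fold change −0.55, SE 0.0881). Their mean levels fell from 82.3 ± 18.6 to 43.1 ± 7.74 CPM, from 785 ± 87.2 to 419 ± 40.5 CPM and from 405 ± 21.1 to 278 ± 6.59 CPM. Short-term, 1 of the 7 was lower, against 4.71% of all tested genes, namely CTNNAL1, an alpha-catenin relative (adjusted p = 0.0311 by edgeR, log2 fold change −0.43, SE 0.121). Of 6 tested desmosome plaque genes, 1 was lower and 1 higher long-term and 2 were higher short-term, where 15.8%, 13.7% and 5.62% of all tested genes were. PKP2 (plakophilin 2) fell (adjusted p = 3.43e-05 by edgeR, log2 fold change −0.89, SE 0.126) and EVPL (envoplakin) rose (adjusted p = 0.00632 by edgeR, log2 fold change 0.79, SE 0.200) long-term, while PPL (periplakin; adjusted p = 0.000621 by edgeR, log2 fold change 3.38, SE 0.552) and PKP4 (adjusted p = 0.0355 by edgeR, log2 fold change 0.39, SE 0.114) rose short-term.

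Other markers moved in the same libraries. The summed CPM of 8 general epithelial markers was 3146 to 3507 in long-term nontarget and 2305 to 3170 in long-term knockdown libraries, where 4 of the 8 were lower (against 15.8% of all tested genes), among them CLDN1 (claudin 1; adjusted p = 4.53e-11 by edgeR, log2 fold change −2.68, SE 0.115). That of 10 fibroblast and mesenchymal markers was 2239 to 2931 and 1171 to 1359, with 1 of 6 tested genes higher (LUM) and 2 lower, FN1 (fibronectin; adjusted p = 8.60e-09 by edgeR, log2 fold change −2.52, SE 0.163) and PDGFRB, against 13.7% and 15.8% of all tested genes. FN1 and VIM (vimentin) made up most of the mesenchymal sum. The fall of the sum lay in FN1, with means of 1627 CPM without and 284.1 CPM with knockdown. VIM did not fall (839.2 and 975 CPM), and COL1A1 was nearly level (18.72 and 18.2 CPM). Short-term, both sums were higher with knockdown without overlap, at 2710 to 2949 and 3070 to 3953 for the epithelial and 2479 to 2948 and 3460 to 3845 for the mesenchymal list. The keratins KRT8 (1680 and 2154 CPM) and KRT18 (644.8 and 807 CPM) made up most of the epithelial sum. No epithelial gene was called higher short-term. Of the 8 epithelial genes 1 was lower short-term (CLDN1; adjusted p = 0.0169 by edgeR, log2 fold change −0.41, SE 0.104), against 4.71% of all tested genes, and of the 6 tested mesenchymal genes 1 was higher, against 5.62%, namely FN1, which rose from 1590 ± 315 to 2498 ± 230.4 CPM (adjusted p = 0.0109 by edgeR, log2 fold change 0.65, SE 0.154). Of 10 listed mesenchymal genes, PDGFRA had 0 counts in long-term knockdown cells and PDGFRA, DCN and COL1A2 had 0 in long-term nontarget cells. Of 4 tested proximal tubule markers, GGT1, MME and PAX8 were higher short-term, against 5.62% of all tested genes. Long-term, MME (neprilysin) rose from 38.1 ± 3.11 to 85.8 ± 5.90 CPM (adjusted p = 6.38e-07 by edgeR, log2 fold change 1.17, SE 0.115) and GGT1 (gamma-glutamyltransferase) from 36.3 ± 9.16 to 65.5 ± 10.5 CPM (adjusted p = 0.000603 by edgeR, log2 fold change 0.85, SE 0.160), while PAX8, a kidney transcription factor, fell (adjusted p = 0.000204 by edgeR, log2 fold change −0.61, SE 0.103). The summed CPM of all 15 listed proximal tubule markers was 249 to 284 and 339 to 364 short-term and 309 to 367 and 312 to 358 long-term, without and with knockdown. The part of these shifts in the cadherin values, CDH6 and CDH16 included, was not tested. Among 9 genes listed as repressors of CDH1 transcription, SNAI2 was lower after knockdown at both times (short-term adjusted p = 0.00355 by edgeR, log2 fold change −0.75, SE 0.151, long-term adjusted p = 1.90e-06 by edgeR, log2 fold change −1.42, SE 0.153). SNAI2 was the 1 lower gene of the 7 tested at each time, against 4.71% of all tested genes short-term and 15.8% long-term. Of the 7 tested, TCF4 and TWIST1 were higher long-term and ZEB2 was higher short-term, against 13.7% and 5.62% of all tested genes.

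CLSTN2 (calsyntenin 2, a transmembrane protein known from synapses; chr3:139935185-140577397, plus strand) had the largest fold change of the tested members. It had 44.6, 38.3 and 59.2 CPM in short-term nontarget and 54.0, 60.2 and 55.9 CPM in short-term knockdown libraries, which overlapped (adjusted p = 0.276 by edgeR, log2 fold change 0.26, SE 0.138). Leaving out 1 library moved this value between 0.13 and 0.45, and with short-term nontarget replicate 3 left out it was called (adjusted p = 0.0435 by edgeR). Long-term nontarget libraries had 257, 232 and 257 CPM and long-term knockdown libraries 0.231, 0.440 and 0.678 CPM. The long-term knockdown libraries held 2, 3 and 4 counts, 9 in all against 5401 in the long-term nontarget libraries. This was a 565-fold fall (adjusted p = 4.79e-14 by edgeR, log2 fold change −9.14, SE 0.244), and the effects differed by −9.40 (SE 0.295, adjusted p = 7.33e-13 by edgeR). Long-term nontarget cells were 5.25-fold above short-term nontarget cells (adjusted p = 1.79e-08 by edgeR, log2 fold change 2.39, SE 0.138), and long-term knockdown cells were 129-fold below short-term knockdown cells (adjusted p = 1.36e-11 by edgeR, log2 fold change −7.01, SE 0.261). The 40 nearest tested genes had a median of 0.08 long-term. The promoter printed above is rich in CpG dinucleotides, and DNA methylation was not measured in the data used here.

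The other calsyntenins moved less. CLSTN1 (calsyntenin 1, which links cargo to kinesin-1) had 213, 206 and 227 CPM in short-term nontarget and 202, 208 and 244 CPM in short-term knockdown libraries, which overlapped. It had 293, 313 and 403 CPM in long-term nontarget and 228, 223 and 284 CPM in long-term knockdown libraries (adjusted p = 0.00993 by edgeR, log2 fold change −0.46, SE 0.126), a call that was lost without long-term nontarget replicate 3, the highest library (adjusted p = 0.0627). CLSTN3, a synaptic relative, had 35.1, 27.2 and 31.1 CPM in short-term nontarget and 26.9, 27.9 and 28.3 CPM in short-term knockdown libraries. Its long-term values were 26, 22.6 and 32.4 CPM without and 24.9, 26.0 and 26.5 CPM with knockdown. Its groups overlapped in both comparisons (adjusted p = 0.751 by edgeR, log2 fold change −0.07, SE 0.141 long-term).

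PCDH1 (protocadherin 1, an epithelial protocadherin of the delta group; chr5:141853111-141879246, minus strand) rose after short-term and fell after long-term knockdown. It had 1.37, 2.43 and 2.51 CPM in short-term nontarget and 11.1, 13.4 and 12.2 CPM in short-term knockdown libraries, a rise of 5.85-fold (adjusted p = 1.82e-06 by edgeR, log2 fold change 2.55, SE 0.223). It had 29.4, 35.3 and 34.0 CPM in long-term nontarget and 6.93, 5.43 and 6.78 CPM in long-term knockdown libraries, a fall of 5.13-fold (adjusted p = 2.32e-08 by edgeR, log2 fold change −2.36, SE 0.172). All 4 groups were separate from one another, and the effects differed by −4.91 (SE 0.280, adjusted p = 3.36e-09 by edgeR). PCDH1 was 15.7-fold higher in long-term than in short-term nontarget cells (adjusted p = 6.55e-09 by edgeR, log2 fold change 3.97, SE 0.206), the largest rise of a tested member in that comparison, and the short-term knockdown level lay between both nontarget levels. PCDH1 and CDH3 were the 2 members called in opposite directions in the knockdown comparisons.

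PCDH7, PCDH9 and PCDH10, delta protocadherins studied mainly in the brain, were the other tested genes of this family. PCDH7 had 27.2, 29.6 and 40.7 CPM in short-term nontarget and 32.6, 27.9 and 39.5 CPM in short-term knockdown libraries, which overlapped. Its long-term values were 23.6, 24.5 and 35.7 CPM without and 16.9, 21.3 and 19.2 CPM with knockdown (adjusted p = 0.0377 by edgeR, log2 fold change −0.55, SE 0.193), and the call was lost without long-term knockdown replicate 1 or 3 or long-term nontarget replicate 3 (adjusted p up to 0.214). PCDH9 had 25 and 44 summed counts short-term and 32 and 84 long-term, without and with knockdown, and rose long-term (adjusted p = 0.00230 by edgeR, log2 fold change 1.38, SE 0.307). PCDH10 was called only with long culture of knockdown cells (1.29 ± 0.736 to 3.57 ± 0.140 CPM, adjusted p = 0.00683 by edgeR, log2 fold change 1.51, SE 0.382). Of the other 9 nonclustered protocadherins, 5 had at most 18 counts in all and 4 had none.

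Among the 53 clustered protocadherins, expression was concentrated in a few gamma genes. The 15 alpha genes had 16, 6, 7 and 0 counts in short-term nontarget, short-term knockdown, long-term nontarget and long-term knockdown cells, and PCDHAC2 held 16, 2, 7 and 0 of them. The 16 beta genes summed to 6.04 ± 1.64, 4.42 ± 0.538, 4.26 ± 0.915 and 3.42 ± 1.07 CPM in the same order. The 22 gamma genes summed to 96.9 ± 8.65, 63.9 ± 10.5, 107 ± 15.7 and 88.4 ± 3.96 CPM. PCDHGC3, a C-type gamma gene, held 77.7% (95% interval 75.8 to 79.5%) of the gamma counts in short-term nontarget, 82.2% (95% interval 79.9 to 84.2%) in short-term knockdown, 87.4% (95% interval 86.0 to 88.7%) in long-term nontarget and 88.1% (95% interval 86.5 to 89.5%) in long-term knockdown cells, with intervals for counting error only (Clopper-Pearson). The gamma genes share their last exons, so a read there cannot be given to 1 gene, and how such reads were counted is not stated.

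**Figure D3:**
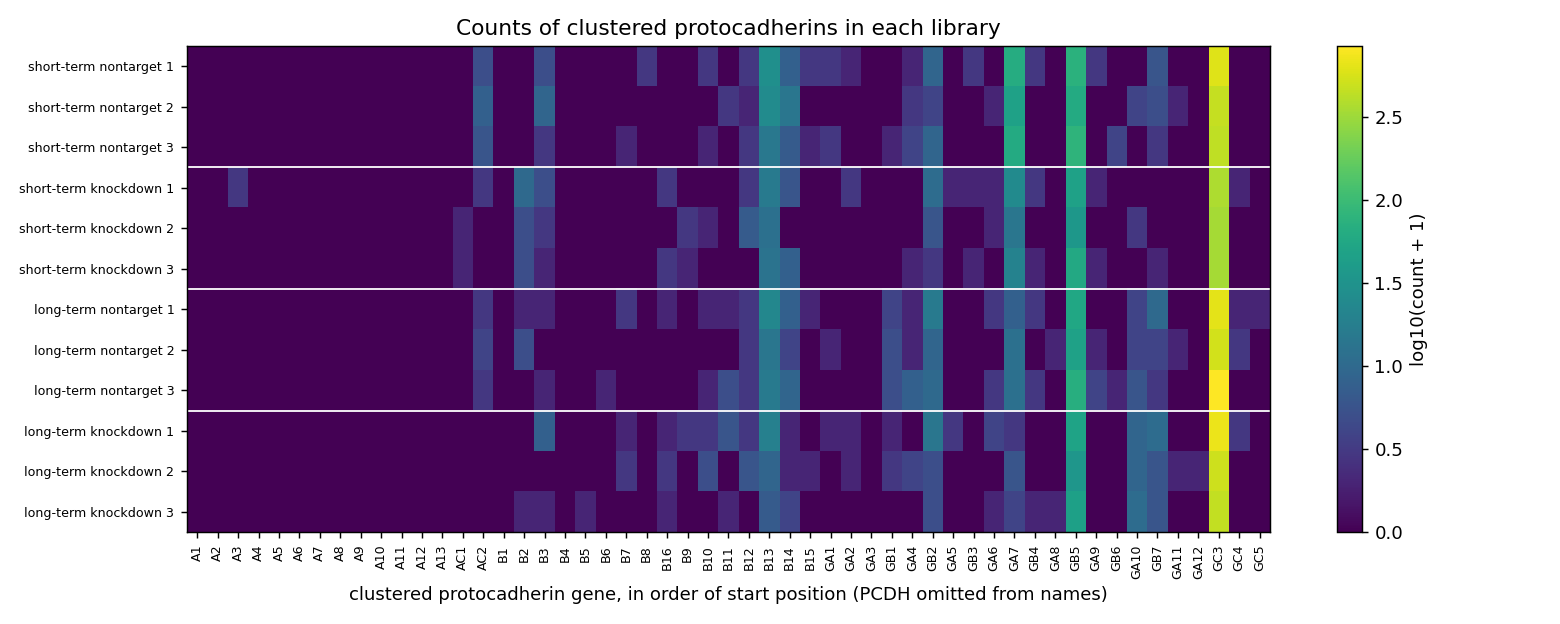
Counts of the clustered protocadherins (color, log10 of count + 1) in the 12 libraries (rows) with genes in the order of their start positions (columns, PCDH omitted from the names). PCDHGC3 is the brightest column in every library, PCDHGA7 fades from the short-term nontarget to the long-term knockdown rows, and the alpha genes other than PCDHAC2 are nearly empty.

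PCDHGC3 (chr5:141475947-141512979, plus strand) had 84.5, 70.9 and 70.1 CPM in short-term nontarget and 46.7, 49.6 and 61.2 CPM in short-term knockdown libraries without overlap (adjusted p = 0.0157 by edgeR, log2 fold change −0.52, SE 0.132). The call was lost without short-term nontarget replicate 1 or short-term knockdown replicate 1 or 2 (adjusted p up to 0.101). It had 86.3, 83.5 and 110.2 CPM in long-term nontarget and 81.5, 74.8 and 77 CPM in long-term knockdown libraries (adjusted p = 0.139 by edgeR, log2 fold change −0.26, SE 0.128). PCDHGA7 (chr5:141382739-141512979, plus strand) fell with knockdown and with culture. It had 8.75, 6.99 and 9.58 CPM and 3.04, 1.90 and 3.36 CPM short-term, and 0.938, 1.70 and 1.42 CPM and 0.231, 0.734 and 0.509 CPM long-term, without and with knockdown. The groups stepped down in that order without overlap.

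The fall of PCDHGA7 was 3.05-fold after short-term knockdown (adjusted p = 0.000871 by edgeR, log2 fold change −1.61, SE 0.273) and 6.21-fold with long culture of nontarget cells (adjusted p = 2.79e-05 by edgeR, log2 fold change −2.64, SE 0.304). After long-term knockdown (adjusted p = 0.0297 by edgeR, log2 fold change −1.48, SE 0.489), where the groups held 29 and 10 counts, the call was lost without long-term knockdown replicate 1 or 3 or long-term nontarget replicate 2 or 3 (adjusted p up to 0.156). Its share of the gamma counts was 8.68% (95% interval 7.47 to 10.0%) in short-term nontarget, 4.37% (95% interval 3.31 to 5.63%) in short-term knockdown, 1.25% (95% interval 0.836 to 1.78%) in long-term nontarget and 0.528% (95% interval 0.253 to 0.968%) in long-term knockdown cells. PCDHGB5 and PCDHB13, the other tested clustered genes, had lowest adjusted p-values of 0.135 and 0.151 (edgeR) over the 5 comparisons. The 40 tested genes nearest to the cluster had a median log2 fold change between −0.07 and 0.07 in these comparisons.

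Some clustered genes had too few counts to pass the filter but differed in counts between groups. PCDHB2 had 0, 0 and 0 counts in short-term nontarget, 9, 4 and 4 in short-term knockdown, 1, 4 and 0 in long-term nontarget and 0, 0 and 1 in long-term knockdown libraries. Against a floor of 3 counts over the group it was at least 5.63-fold higher after short-term knockdown. PCDHGA10 had 3, 2, 11 and 26 summed counts in the same order of groups. Its long-term knockdown libraries (8, 8 and 10 counts) stood above its short-term knockdown libraries (0, 2 and 0 counts) by a ratio of 12.4 (95% counting interval 3.11 to 108). PCDHGB7 had 11, 1, 14 and 20 summed counts, and was thus low in short-term knockdown cells and present in the other 3 groups. The ratio of long-term to short-term knockdown cells was 19.1 (95% counting interval 3.05 to 791). Without the filter, PCDHB2 was called higher after short-term knockdown (adjusted p = 0.0055 by edgeR, log2 fold change 5.55). With long culture of knockdown cells, PCDHB2 was then called lower (adjusted p = 0.0145 by edgeR, log2 fold change −3.68). In that comparison PCDHGA10 (adjusted p = 0.00186 by edgeR, log2 fold change 3.44) and PCDHGB7 (adjusted p = 0.00309 by edgeR, log2 fold change 3.82) were called higher. These genes were singled out after their values were seen.

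Exons of other annotated genes overlap those of several members: PIK3CD with CLSTN1, DSG2-AS1 with DSG2, PCDH9-AS1 with PCDH9, and unnamed or pseudogene transcripts with CDH1, CDH2, CDH3, CDH6, CDH11, CDH13 and CLSTN3. The library kit does not mark strand, so reads in these stretches cannot be told apart. CLSTN2, CDH16, CDH24, DSC2, DSC3, PCDH1 and PCDH7 share no exon with another annotated gene.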

How the data were processed

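PolyA RNA libraries (TruSeq v2, MiSeq) were prepared from 12 cultures. The authors trimmed reads with fastp, mapped them with STAR (2-pass) and counted them with featureCounts, per the paper and the submitters' processing notes, which name GRCh38. Versions, annotation release and strand setting are not given in the sources used here. The deposited values used have the unit count (raw reads per gene). The authors' normalized values have the unit score here, equal the count divided by 1 factor per library (100% within 1), and served only for this check. Per-library files and table differed in 0 values.

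The counts were tested with edgeR 4.0.16 in R 4.3.3 (filterByExpr by group, TMM factors, robust quasi-likelihood fit, 1 model of 12 libraries with a term per group, prior count 0.125). The filter left 13959 of 58288 genes and 99.8% of the counts. Tests were two-sided, with Benjamini-Hochberg adjustment across these genes, and no fold limit was used. The SE is the log2 fold change divided by the square root of F. CPM uses TMM-scaled totals. RPKM uses exonic length in GENCODE 29, outside other genes' exons for clustered protocadherins, since that annotation matched 93 of the 99 members with the same version, and coordinates are given for those only. Promoters are from RefSeq (GRCh38.p14), with an entry for 79 of 99 members and 15 of 21 tested ones. CDH3, CDH6, CDH16, CDH17, CDH24 and PCDH10 had no entry. The level of PCDH11Y is not reported.

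On simulated data with 200 genes changed 3-fold among 13959, the fit recovered 93% (short-term knockdown) and 86.5% (long-term knockdown), 92% and 90.5% with long culture of nontarget and knockdown cells, and 83% for the interaction, and 1.70 to 6.70% of the calls were false. The simulated libraries were drawn independently and no other gene changed. These shares thus need not hold where libraries deviate together or many genes differ. Chi-square per degree of freedom between replicates was 2.12 to 12.4, so they differed beyond counting error. Same-numbered libraries deviated together (r = 0.123 to 0.467) among the short-term knockdown, long-term nontarget and long-term knockdown groups, so long-term knockdown and long culture of knockdown cells were also read with the replicate number as a block, which changed no member's call.

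The members and lists were chosen with earlier results of these data known. Named were tested members called with at least a 2-fold change in a knockdown comparison or the interaction, the 5 of highest RPKM, a set of well-known members whatever their result, the 5 largest each way of those called in a culture comparison only, and up to 4 called genes per partner list. Alternatives were RLE factors, DESeq2 1.42.0, omitting the filter, requiring a mean CPM of 10, a replicate block, fitting the compared groups alone, and leaving out each library.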

Additional observations from a re-analysis of the deposited data

Results flagged for a closer look

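The knockdown effect differed between long-term and short-term cells, by the interaction term of edgeR's fit, for 7 members. The difference (long-term minus short-term effect, log2) was −9.40 (SE 0.295, adjusted p = 7.33e-13 by edgeR) for CLSTN2, −5.34 (SE 0.361, adjusted p = 2.23e-08 by edgeR) for CDH3, −4.91 (SE 0.280, adjusted p = 3.36e-09 by edgeR) for PCDH1 and −4.78 (SE 0.923, adjusted p = 0.00168 by edgeR) for CDH4. It was −1.02 (SE 0.163, adjusted p = 0.000299 by edgeR) for DSC3, −0.78 (SE 0.219, adjusted p = 0.0237 by edgeR) for DSC2 and 1.72 (SE 0.294, adjusted p = 0.000845 by edgeR) for CDH6, the 1 positive difference. CDH3 and PCDH1 rose short-term and fell long-term, CDH6 rose and DSC3 fell at both times, and CLSTN2, CDH4 and DSC2 were called only long-term. The CDH4 value depends on the prior count, since 1 count remained after long-term knockdown, and was −6.60 without the library that held it, long-term knockdown replicate 1 (−4.36 at the other end of the fits without 1 library).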

How the results depend on the processing

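The number of members called stayed within 1.5 times its value under every alternative run for both knockdown and both culture comparisons. For the interaction, 7 members were called, against 12 without a filter on low counts, where CDH1 and PCDHB2 were tested and called, and 11 with the replicate number as a block (replicate block), which added CDH24, CDH16, PCDH7 and CLSTN1. Leaving out 1 library gave 5 to 7 members short-term, 12 to 15 long-term (against 7 and 16), and 6 to 9 for the interaction. None of the named members' values changed direction while called. Libraries of the same number had correlated deviations above 0.1 in 10 of 18 pairs (−0.101 to 0.467), against 5 of 36 pairs of unlike number (−0.397 to 0.231). Of 12 libraries, 10 correlated best with their own number, a hint from the data of shared batches that the labels do not name. Every same-numbered pair was above 0.1 among short-term knockdown, long-term nontarget and long-term knockdown libraries, but not for pairs with short-term nontarget libraries, so the short-term knockdown, nontarget culture and interaction comparisons were not taken as paired. With the block, CDH16 and PCDHGB5 were also called short-term and CDH24 with long culture of nontarget cells, and the 16 calls of long-term knockdown and the 16 of long culture of knockdown cells did not change. Among the re-computed single values, 30 lost and 6 gained a call. Genes under about 3 CPM, such as CDH4, CDH17 and PCDHGA7 in long-term cells, are limited by their counts.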

Other observations

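Of 15 listed cadherin superfamily genes outside the symbol rule, 9 genes of the FAT, CELSR, DCHS and CDHR families were tested. By edgeR, 1 was higher and 2 were lower short-term (against 5.62% and 4.71% of all tested genes), and 2 were higher and 1 was lower long-term (against 13.7% and 15.8%). After short-term knockdown FAT3, an atypical cadherin, rose from 2.02 ± 1.66 to 6.50 ± 0.271 CPM (adjusted p = 0.00332 by edgeR, log2 fold change 1.70, SE 0.340), and it rose long-term from 1.25 ± 0.176 to 9.65 ± 0.476 CPM (adjusted p = 5.34e-06 by edgeR, log2 fold change 2.93, SE 0.347). FAT4, a planar polarity cadherin, fell short-term from 21.6 ± 9.51 to 8.22 ± 0.263 CPM (adjusted p = 0.000796 by edgeR, log2 fold change −1.39, SE 0.234), with a differing long-term effect (interaction adjusted p = 0.0132 by edgeR, log2 fold change 1.27, SE 0.325). FAT1 fell long-term from 294 ± 22.2 to 185 ± 37.1 CPM (adjusted p = 0.0202 by edgeR, log2 fold change −0.67, SE 0.201), less than the median of its 40 nearest tested genes, −1.07 on the log2 scale. CDHR2, a brush border cadherin, rose long-term (adjusted p = 0.0105 by edgeR, log2 fold change 1.57, SE 0.433), and CELSR2 fell short-term (adjusted p = 0.0225 by edgeR, log2 fold change −0.70, SE 0.184).

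Of 8 tested genes listed under cadherin processing proteases, 3 were lower and 1 higher after long-term knockdown by edgeR's test, against 15.8% and 13.7% of all tested genes. FURIN, which removes the propeptide of classical cadherins, fell from 142 ± 30.4 to 85.7 ± 22.1 CPM (adjusted p = 0.00275 by edgeR, log2 fold change −0.73, SE 0.164), and ADAM10, which sheds N-cadherin, fell from 276 ± 24.7 to 229.8 ± 16.2 CPM (adjusted p = 0.0364 by edgeR, log2 fold change −0.27, SE 0.0916). ADAM17, another sheddase, rose from 57.5 ± 4.37 to 73.6 ± 9.16 CPM (adjusted p = 0.0361 by edgeR, log2 fold change 0.36, SE 0.124). All 11 listed regulators of the clustered protocadherins were tested. Short-term, 1 was lower (against 4.71% of all tested genes), and long-term 1 was higher and 2 were lower (against 13.7% and 15.8%), while the others were not called by edgeR. SMCHD1, a chromatin protein that silences clustered protocadherins, fell short-term from 69.9 ± 8.75 to 27.3 ± 2.18 CPM (adjusted p = 1.72e-05 by edgeR, log2 fold change −1.35, SE 0.151) and long-term from 68.4 ± 8.52 to 27.3 ± 5.82 CPM (adjusted p = 3.43e-06 by edgeR, log2 fold change −1.32, SE 0.150). DNMT3B, a DNA methyltransferase, fell long-term from 46.0 ± 4.92 to 14.4 ± 2.75 CPM (adjusted p = 7.68e-07 by edgeR, log2 fold change −1.68, SE 0.168), and NIPBL, the cohesin loader, rose (adjusted p = 0.0131 by edgeR, log2 fold change 0.61, SE 0.174).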
